A study of Mus musculus with 8 samples.

Results

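The 10 genes described here, Foxp3, Ikzf2, Il2ra, Tnfrsf4, Tnfrsf9, Tnfrsf18, Icos, Izumo1r, Penk and Dscam, were taken by name as genes of tumour regulatory T cells, and all 10 were found in each of 4 single-cell count matrices that together listed 27405 genes. They were chosen by their levels across T cell types in these same libraries, measured as UMIs of each gene. Their levels across cell types are therefore given as a description, with no test. The data came from CD45+ cells, that is leukocytes, sorted from tumours of MC38, a mouse colon carcinoma line, with the genotype given as wild-type. Of the 4 libraries, 2 were labelled control and 2 LNP-Sirpa, a treatment named for Sirpa, the inhibitory receptor of macrophages. All 4 carried 1 batch label. The labels do not state dose, schedule, vehicle, age, sex or the number of animals behind a library, so p-values measure the spread between these libraries, which may be technical. A further 4 libraries of oligo tags were not analysed here. Values of the 4 libraries are given throughout in the order control replicates 1 and 2, then LNP-Sirpa replicates 1 and 2.

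Regulatory T cells are CD4 T cells that restrain other lymphocytes. Foxp3 is the transcription factor that holds their identity, and they depend on interleukin-2 made by other cells, which they take up through a high-affinity receptor containing the chain encoded by Il2ra. In tumours they are known for high levels of costimulatory receptors of the TNF receptor family and of ICOS, which are also induced on conventional T cells after they meet antigen.

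Of the 10 genes, 7 had a RefSeq promoter entry (build GRCm38.p6), with 9 start sites between them. Ikzf2, Icos and Penk had none. Upstream windows of 250 bases were searched on both strands for 4 motifs of T cell activation: AP-1 (TGANTCA), NF-kB (GGG, then any 2 bases, then TTTCC), STAT (TTCNNNGAA) and forkhead (TGTTTAC). The STAT motif was in 3 of the 9 windows, against 7.02% of 32851 windows of the same length. AP-1 was in 1 of the 9 (6.75% of all windows), NF-kB in 1 (1.41%) and forkhead in 0 (3.17%). Only the 3 windows with a match are shown, 1 each of Foxp3, Tnfrsf9 and Tnfrsf18. The windows of Tnfrsf4, Il2ra, Izumo1r and Dscam had none, nor had the first listed windows of Foxp3 and Tnfrsf9. Motif letters are in capitals, no matches overlapped, and a match is a description of letters, not of a bound site.
Foxp3, the second listed start site, chrX:7580233-7580482, + strand: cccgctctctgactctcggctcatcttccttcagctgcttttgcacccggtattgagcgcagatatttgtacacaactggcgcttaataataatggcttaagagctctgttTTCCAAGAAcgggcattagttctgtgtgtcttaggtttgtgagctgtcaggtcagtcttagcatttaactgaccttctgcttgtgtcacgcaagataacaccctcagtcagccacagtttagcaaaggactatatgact
Tnfrsf9, the second listed start site, chr4:150927749-150927998, + strand: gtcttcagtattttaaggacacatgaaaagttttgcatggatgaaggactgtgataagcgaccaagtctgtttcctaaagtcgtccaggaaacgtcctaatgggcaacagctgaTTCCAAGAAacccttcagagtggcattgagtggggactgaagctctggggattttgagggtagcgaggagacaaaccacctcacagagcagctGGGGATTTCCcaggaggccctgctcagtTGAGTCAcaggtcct
Tnfrsf18, chr4:156026072-156026321, + strand: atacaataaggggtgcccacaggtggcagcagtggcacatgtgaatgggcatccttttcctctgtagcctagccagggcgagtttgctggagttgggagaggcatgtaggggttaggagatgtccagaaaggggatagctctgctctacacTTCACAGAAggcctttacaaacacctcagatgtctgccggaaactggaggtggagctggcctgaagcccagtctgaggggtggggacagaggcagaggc
In the Tnfrsf9 window the matches began 136 (STAT, TTCCAAGAA), 43 (NF-kB, GGGGATTTCC) and 15 (AP-1, TGAGTCA) bases before the start site. The STAT matches began 139 bases before the Foxp3 start site and 99 bases before that of Tnfrsf18 (TTCACAGAA).

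The 4 libraries held 7511, 10890, 10348 and 9008 cell names and from 68654004 to 90789729 UMIs (unique molecular identifiers, each a counted RNA molecule), and 35831 cells were kept. Between 830 and 1242 cell names were shared by each pair of libraries, and no shared name had the same UMI and gene number in both. Cells were gated by marker UMIs, and a T cell had at least 2 UMIs of Cd3d, Cd3e and Cd3g together. Foxp3+ CD4 cells had in addition at least 1 Cd4 and 1 Foxp3 UMI and no Cd8a or Cd8b1 UMI, and numbered 48, 56, 151 and 82 (337 in all). Foxp3-negative CD4 cells numbered 15, 38, 109 and 99, CD8 T cells 74, 377, 546 and 416, and NK cells 128, 78, 212 and 45. Phagocytes, the most abundant class, numbered 4051, 5286, 2829 and 3421, and Sirpa in them was at 533, 548, 466 and 338 CPM (counts per 1000000 UMIs of the class in a library), a difference that did not pass the test (log2 -0.29 ± 0.20 SE, edgeR adjusted p = 0.482). The Foxp3+ CD4 gate carried the 7 other T cell markers that were checked, none at 0, at a summed 2585 to 3898 CPM. It also carried the 10 phagocyte markers, at 4481, 4355, 3122 and 2817 CPM. Lymphocyte gates took only cells whose share of phagocyte marker UMIs was under 1/3 of the phagocyte median of their library, a limit of 0.926%, 1.22%, 0.662% and 0.701%, higher in control. It left out 248 of 497, 818 of 1467, 1408 of 2710 and 627 of 1525 cells with T cell UMIs.

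Foxp3 itself was used for the gate, so its level in Foxp3+ CD4 cells, 459, 756, 677 and 590 CPM, is given without a comparison. A UMI of Foxp3 was also found in 1.43%, 1.14%, 2.44% and 0.994% of phagocytes, which should lack it, at median depths of 6978 to 8283 UMIs per cell, against 4145.5 to 5370.5 in Foxp3+ CD4 cells. Foxp3 overlaps Flicr and Ccdc22 in the RefSeq annotation, and the strand setting of the counting was not stated. Where these genes overlap, their reads cannot be told apart. When each cell was thinned to 2000 UMIs, 68.1%, 82.4%, 80.1% and 73.1% of the gated cells still held a Foxp3 UMI, so a cell without one at this depth may still express the gene. Of all T-gated cells with a Foxp3 UMI, 95, 118, 318 and 201, only 50.5%, 47.5%, 47.5% and 40.8% met the Cd4 and Cd8 conditions. Most of the others had neither coreceptor UMI, 41.1%, 32.2%, 27.7% and 47.8%.

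Ikzf2, which encodes Helios, a zinc finger factor of regulatory T cells, was at 1160, 1855, 1541 and 1445 CPM in Foxp3+ CD4 cells. In Foxp3-negative CD4 cells it was at 624, 419, 396 and 478 CPM, and in CD8 T cells at 288, 211, 205 and 105 CPM. The 3 ranges did not overlap, and within a library the Foxp3+ CD4 level was 1.86 to 4.43 times that of Foxp3-negative CD4 cells and 4.03 to 13.8 times that of CD8 T cells. NK cells were lower again, at 42.3, 36.2, 55.9 and 55.4 CPM. At 2000 UMIs per cell, Ikzf2 was detected in 91.5%, 94.1%, 88.4% and 88.5% of Foxp3+ CD4 cells, against 1.62%, 1.95%, 4.28% and 1.53% of phagocytes. The source of the phagocyte UMIs was not tested.

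Il2ra, the alpha chain of the interleukin-2 receptor (CD25), was at 400, 512, 601 and 649 CPM in Foxp3+ CD4 cells and at 94.1, 42.6, 76.6 and 53.4 CPM in CD8 T cells. The Foxp3+ level was 4.25 to 12.2 times the CD8 level. Against Foxp3-negative CD4 cells, at 471, 155, 197 and 199 CPM, it was higher in 3 of the 4 libraries. The exception was control replicate 1, whose Foxp3-negative value came from 40 UMIs in 15 cells. Outside the T cells, mature dendritic cells (Ccr7 and Fscn1 gate) also carried Il2ra, at 54.8, 50.3, 78.4 and 155 CPM. That was above NK cells, at 33.6, 29.7, 54.7 and 23.3 CPM, in all 4 libraries and above CD8 cells in 3 of 4.

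**Figure D1:**
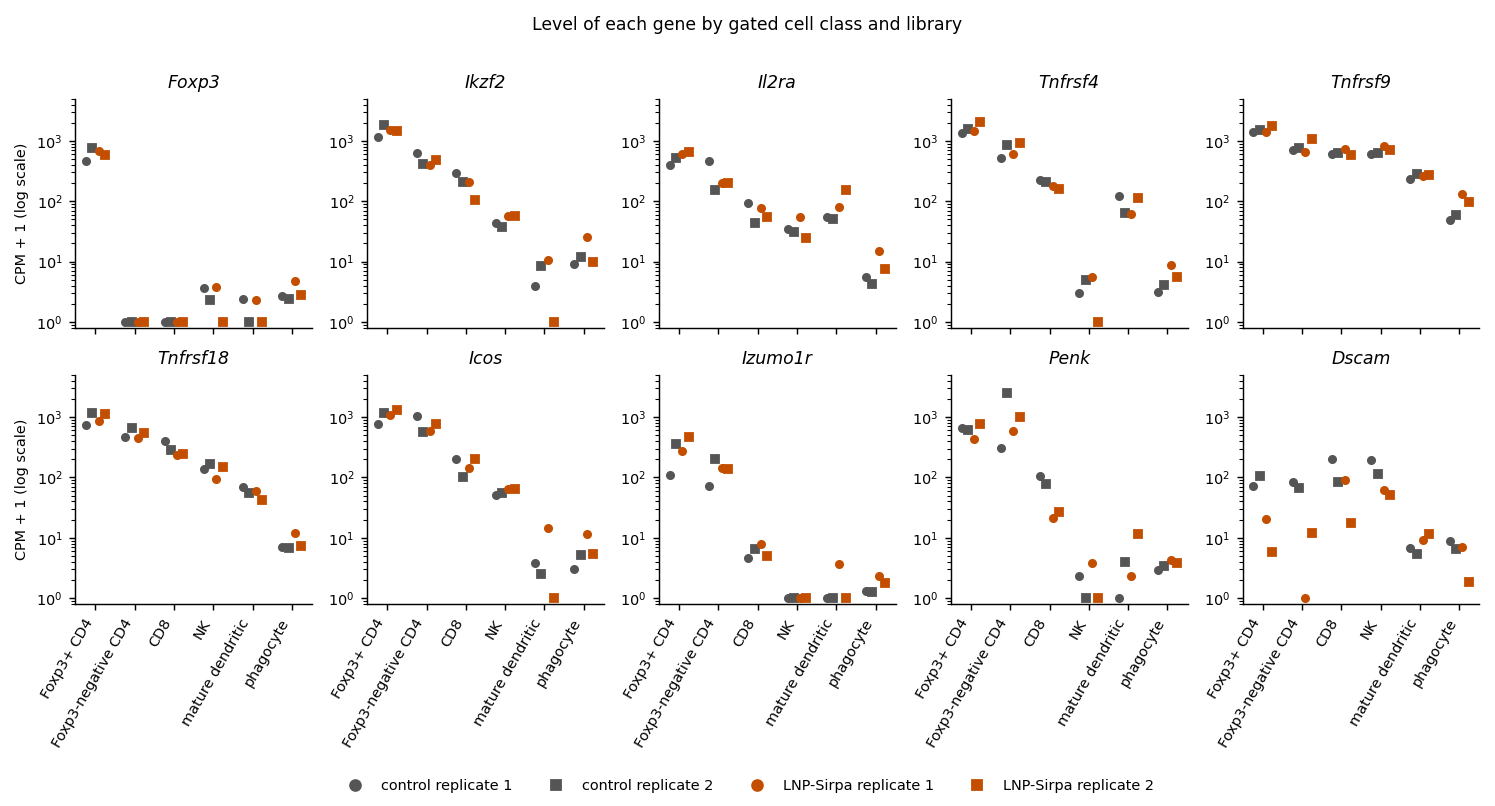
Level of each of the 10 genes, in CPM + 1 on a log scale, in 6 gated cell classes; each point is 1 library, grey for control and orange for LNP-Sirpa, circles for replicate 1 and squares for replicate 2. The genes were chosen by their levels across T cell types in these libraries, so their order is a description. For Dscam the Foxp3+ CD4 points do not all lie above the CD8 points, and for Penk the Foxp3-negative CD4 points reach 2475 CPM.

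The TNF receptor genes were the next group. Tnfrsf4 (OX40, a costimulatory receptor) was at 1345, 1577, 1447 and 2056 CPM in Foxp3+ CD4 cells, at 530, 868, 602 and 919 CPM in Foxp3-negative CD4 cells and at 220, 207, 180 and 156 CPM in CD8 T cells. These 3 ranges did not overlap. NK cells had almost none, with 3, 3, 8 and 0 UMIs in the class. Tnfrsf4 overlaps Sdf4, a gene of a calcium-binding protein of the secretory pathway, in the RefSeq annotation. Sdf4 followed the same order, at 1079, 1446, 1482 and 1882 CPM in Foxp3+ CD4 cells against 495, 331, 334 and 306 in CD8 T cells and 113 to 138 in phagocytes. The strand setting of the counting was not stated, so reads of the 2 genes cannot be told apart.

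Tnfrsf9 (4-1BB, a costimulatory receptor induced by activation) was at 1402, 1522, 1405 and 1750 CPM in Foxp3+ CD4 cells, above every other class in each library. Its margin was narrower than for Tnfrsf4: the Foxp3+ CD4 level was 1.66 to 2.17 times that of Foxp3-negative CD4 cells, 1.90 to 2.98 times that of CD8 cells and 1.68 to 2.45 times that of NK cells. CD8 T cells, at 616, 625, 739 and 587 CPM, and NK cells, at 608, 623, 838 and 714 CPM, overlapped each other and the lower Foxp3-negative CD4 values. Mature dendritic cells were at 229, 277, 265 and 269 CPM. Tnfrsf9 was thus a gene of T and NK cells alike, with its highest level in Foxp3+ CD4 cells, while the few B cells held 0, 0, 1 and 1 UMIs.

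Tnfrsf18 (GITR) was at 746, 1188, 860 and 1145 CPM in Foxp3+ CD4 cells and at 471, 664, 448 and 536 CPM in Foxp3-negative CD4 cells, without overlap. It was lower in CD8 T cells, at 396, 280, 239 and 241 CPM, and in NK cells, at 134, 165, 93.1 and 149 CPM. Tnfrsf18 overlaps Gm16008 in the RefSeq annotation, with the same limit on telling reads apart. Icos, the inducible costimulator of the CD28 family, was at 770, 1147, 1069 and 1327 CPM in Foxp3+ CD4 cells and at 201, 101, 143 and 199 CPM in CD8 T cells, a ratio of 3.84 to 11.3 within a library. Foxp3-negative CD4 cells carried 1036, 574, 580 and 757 CPM of Icos, so the 2 CD4 classes overlapped, and control replicate 1 had the higher level in the Foxp3-negative cells. Icos separated CD4 from CD8 cells in each library, and Foxp3+ from Foxp3-negative CD4 cells in 3 of 4.

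Izumo1r, which encodes folate receptor 4, a surface protein of regulatory and some helper T cells, was at 109, 354, 269 and 460 CPM in Foxp3+ CD4 cells. Foxp3-negative CD4 cells had 70.6, 200, 143 and 140 CPM, lower in each library although the ranges overlapped. CD8 T cells had 3.55, 5.46, 6.98 and 4.01 CPM, and NK cells had 0 UMIs in all 4 libraries. Of the 9 genes other than Foxp3, Izumo1r had the largest ratio of Foxp3+ CD4 over CD8 cells, 30.6 to 115 within a library, and phagocytes held 0.279 to 1.37 CPM.

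Penk and Dscam differed from the other members. Penk encodes proenkephalin, the precursor of the enkephalin opioid peptides. It was at 667, 608, 434 and 777 CPM in Foxp3+ CD4 cells, but at 306, 2475, 584 and 1021 CPM in Foxp3-negative CD4 cells, higher there in 3 of the 4 libraries. CD8 T cells had 103, 77.5, 19.96 and 26.1 CPM, and NK cells had 2, 0, 5 and 0 UMIs. In CPM, Penk was thus higher in both CD4 classes than in CD8 cells of the same library. It was higher in Foxp3+ than in other CD4 cells only in control replicate 1.

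Penk RNA also sat in few cells. In Foxp3+ CD4 cells 50%, 39.3%, 32.5% and 41.5% held a Penk UMI, against 13.3%, 60.5%, 22.0% and 30.3% of Foxp3-negative CD4 cells. Unlike the level in CPM, this share was higher in Foxp3+ cells in every library but control replicate 2. The tenth of Foxp3+ CD4 cells with the most held 63.7%, 71.2%, 75.2% and 72.9% of all their Penk UMIs. For Ikzf2 the same share was 28.1%, 23.7%, 31.3% and 32.2%. Foxp3-negative CD4 cells showed the same skew, and in control replicate 2 a pair of cells gave 53.4% of the 496 Penk UMIs, one of them 138. The plot of UMI concentration shows Penk and Dscam above the other 8 genes. Dscam had only 29, 30, 19 and 2 UMIs, so few that a high share follows from the count. Its share cannot be set beside that of Penk.

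**Figure D2:**
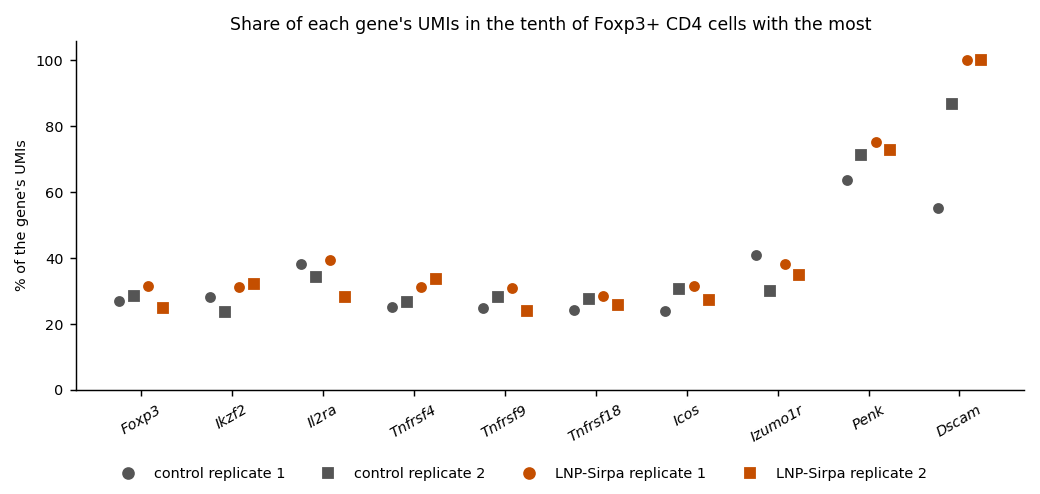
Share of each gene's UMIs found in the tenth of Foxp3+ CD4 cells that hold the most of it, in percent, for the 4 libraries (grey control, orange LNP-Sirpa, circles replicate 1, squares replicate 2). Penk lies at 63.7% to 75.2% and Dscam at 55.2% to 100%. The Dscam values of 100% in LNP-Sirpa replicates 1 and 2 rest on 19 and 2 UMIs.

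Dscam encodes an adhesion molecule of the immunoglobulin superfamily that is best known from neurons. Foxp3+ CD4 cells had 71.6, 103, 19.5 and 4.72 CPM of it, from 29, 30, 19 and 2 UMIs. NK cells had 195, 111, 59.8 and 49.5 CPM, above the Foxp3+ CD4 level in each library, and CD8 T cells had 204, 82.9, 88.1 and 16.5 CPM, above it in 3 of 4. Phagocytes had 7.89, 5.46, 6.05 and 0.864 CPM. Dscam overlaps 2 predicted genes in the RefSeq annotation. One of them, Gm32509, was at 16.8, 11.6, 7.90 and 0 CPM in NK cells and at 10.7, 8.37, 3.24 and 1.20 CPM in CD8 T cells, the same order of libraries as Dscam in NK cells, and the other, Gm32432, had no UMI in the CD4, CD8 and NK gates. The levels in CPM of Penk against other CD4 cells, and of Dscam against CD8 and NK cells, thus went against the label. The share of cells with a Penk UMI did so only in control replicate 2.

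Within the CD4 cells, detection of the members followed the Foxp3 UMIs. At 2000 UMIs per cell, Ikzf2 was found in 26.7%, 38.2%, 39.2% and 37.1% of cells with no Foxp3 UMI. The share was 87.5%, 100%, 83.3% and 77.8% in cells with 1 Foxp3 UMI and 92.3%, 93.0%, 89.3% and 91.7% in cells with 2 or more. Most of the difference thus lay between 0 and 1 Foxp3 UMI, although the middle class held 8, 8, 24 and 18 cells. Il2ra, Tnfrsf4 and Izumo1r had the same shape: for Il2ra the shares were 40.0%, 20.6%, 20.6% and 24.7%, then 87.5%, 62.5%, 58.3% and 61.1%, then 61.5%, 60.5%, 64.8% and 68.3%. For Penk they ran from 13.3% to 52.9% without a Foxp3 UMI and from 25.4% to 38.5% with 2 or more, which overlapped. Within a library the Penk share was higher with 2 or more Foxp3 UMIs than with 0, except in control replicate 2.

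**Figure D3:**
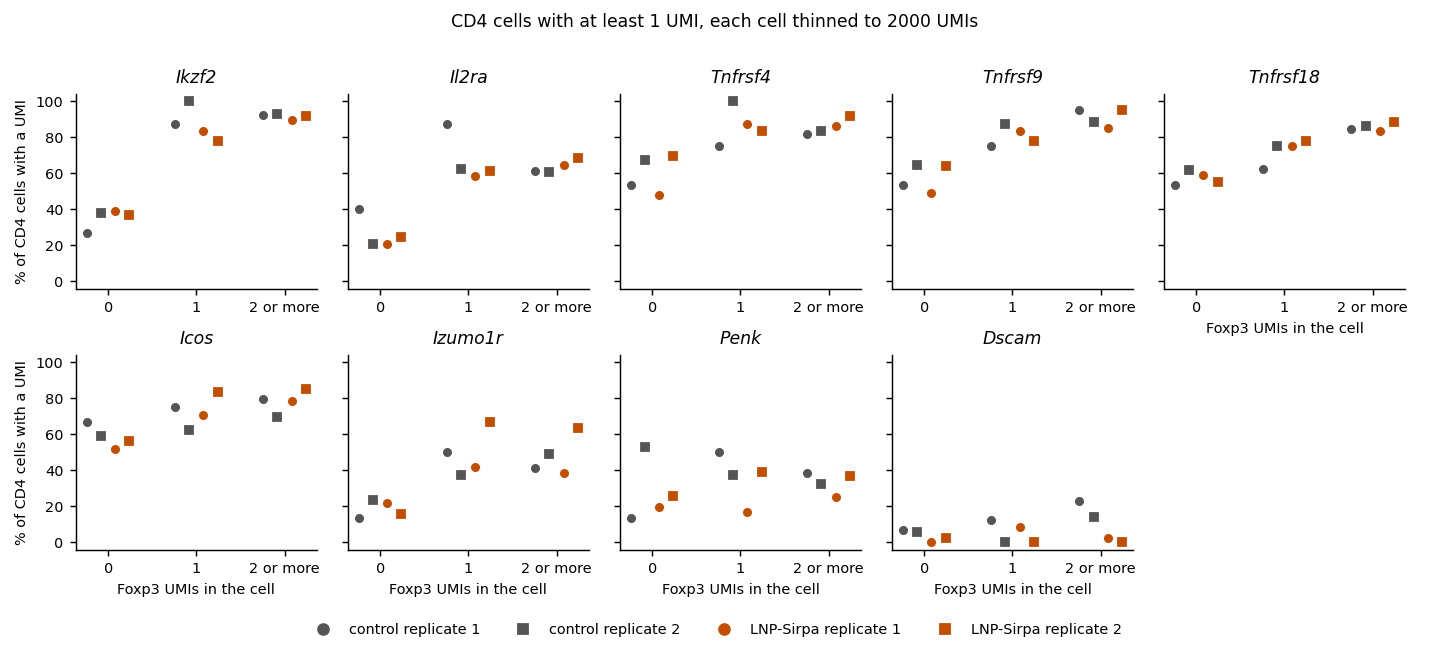
Percentage of CD4 T cells with at least 1 UMI of each gene after every cell was thinned to 2000 UMIs, by the number of Foxp3 UMIs before thinning (0, 1, 2 or more); each point is 1 library, grey control and orange LNP-Sirpa. Ikzf2 goes from 26.7% to 39.2% in cells without a Foxp3 UMI to 89.3% to 93.0% in those with 2 or more, while the ranges of Penk and of Dscam overlap.

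Most Foxp3+ CD4 cells held UMIs of several members. The genes were chosen by their levels across T cell types, so these counts are a description. Whether the genes shared cells more often than their single detection rates give was not tested. Of the 9 genes other than Foxp3, a Foxp3+ CD4 cell thinned to 2000 UMIs held a mean of 5.94, 5.75, 5.49 and 6.08, and a Foxp3-negative CD4 cell a mean of 3.27, 3.94, 3.09 and 3.51. CD8 T cells held 2.55, 2.04, 1.98 and 1.54, NK cells 1.36, 1.19, 1.27 and 1.25, and phagocytes 0.113, 0.134, 0.304 and 0.215. At least 5 of the 9 were present in 80.9%, 86.3%, 82.2% and 89.7% of thinned Foxp3+ CD4 cells, against 8.22%, 5.38%, 4.00% and 1.07% of thinned CD8 T cells. The values of Foxp3-negative CD4 cells, 20%, 32.4%, 20.6% and 28.1%, lay between them. Thinning left out from 1 to 5 Foxp3+ CD4 cells and from 1 to 41 CD8 cells per library. Without thinning the share was 97.9%, 98.2%, 96.7% and 97.6% of Foxp3+ CD4 cells and 50%, 33.2%, 25.6% and 16.6% of CD8 T cells.

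Cycling cells, with at least 2 UMIs of Mki67 and Top2a, made up 20.8%, 25.0%, 17.9% and 13.4% of Foxp3+ CD4 cells. Foxp3, Il2ra, Tnfrsf4, Tnfrsf9, Tnfrsf18, Icos and Dscam were lower in CPM in cycling than in other Foxp3+ CD4 cells in all 4 libraries. For Tnfrsf9 the values were 610, 1102, 1012 and 1443 CPM in cycling cells and 1832, 1859, 1634 and 1840 CPM in the rest, without overlap. Ikzf2 and Izumo1r were lower in 3 of 4 and Penk in 2. Cycling cells were deeper, with medians of 12429.5, 10106.5, 11536 and 7450 UMIs against 4659.5, 3637, 4069 and 3862, and counted per cell the direction turned. Foxp3 was at 5.50, 5.50, 5.37 and 4.73 UMIs per cycling cell and at 3.45, 3.40, 4.16 and 2.79 UMIs per other cell. Il2ra and Ikzf2 were likewise higher per cycling cell in all 4 libraries, and the other 7 members in 3 of 4. Each cycling group held 10 to 27 cells, and no test was made.

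The treatment was compared next, within each gate, on UMIs summed per library. In Foxp3+ CD4 cells 9 members were tested, since Foxp3 defined the gate, and none passed at an adjusted p of 0.05. Of all 5813 genes tested there, 2 passed (0.0344%), while 392 had an unadjusted p under 0.05, and DESeq2 called 6. In simulated data of this size the test recovered 81.0% of genes changed by a log2 of 2 and 14.7% of those changed by 1. The changed genes were drawn at random from all tested genes, so recovery at the members' own levels was not measured. A small shift of a member may have been missed.

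Ikzf2 averaged 1508 ± 491 CPM (SD, n = 2) in control and 1493 ± 68.2 in LNP-Sirpa, a log2 difference of -0.02 ± 0.23 SE. Tnfrsf9 differed by 0.10 ± 0.21, Tnfrsf18 by 0.05 ± 0.25, Tnfrsf4 by 0.26 ± 0.22, Icos by 0.32 ± 0.24, Penk by -0.09 ± 0.28 and Izumo1r by 0.68 ± 0.55 on the log2 scale. None of these was larger than the spread between replicates. Il2ra was at 456 ± 79.1 CPM for control and 625 ± 34.4 CPM for LNP-Sirpa (log2 0.45 ± 0.23 SE), and its edgeR adjusted p was 0.812. Doublings or halvings of Ikzf2, Tnfrsf4, Tnfrsf9, Tnfrsf18, Icos, Il2ra or Penk lay outside 2 SE of the measured differences, while a doubling of Izumo1r did not. With n = 2 per group this does not exclude such changes.

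Dscam had the largest difference of the members in Foxp3+ CD4 cells. It was at 71.6 and 103 CPM in the control libraries and at 19.5 and 4.72 CPM in the treated ones. The log2 difference was -2.60 ± 0.47 SE and the edgeR adjusted p was 0.0977, above the threshold. Over 16 alternative settings the adjusted p ran from 9.99e-06 to 0.171, and 10 passed. Of those 10, 4 were fits with 1 library left out, in which the spread comes from the other group alone and the lone library is assumed to share it. Without LNP-Sirpa replicate 1 the difference was -4.07, and it then rested on the 2 UMIs of replicate 2.

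**Figure D4:**
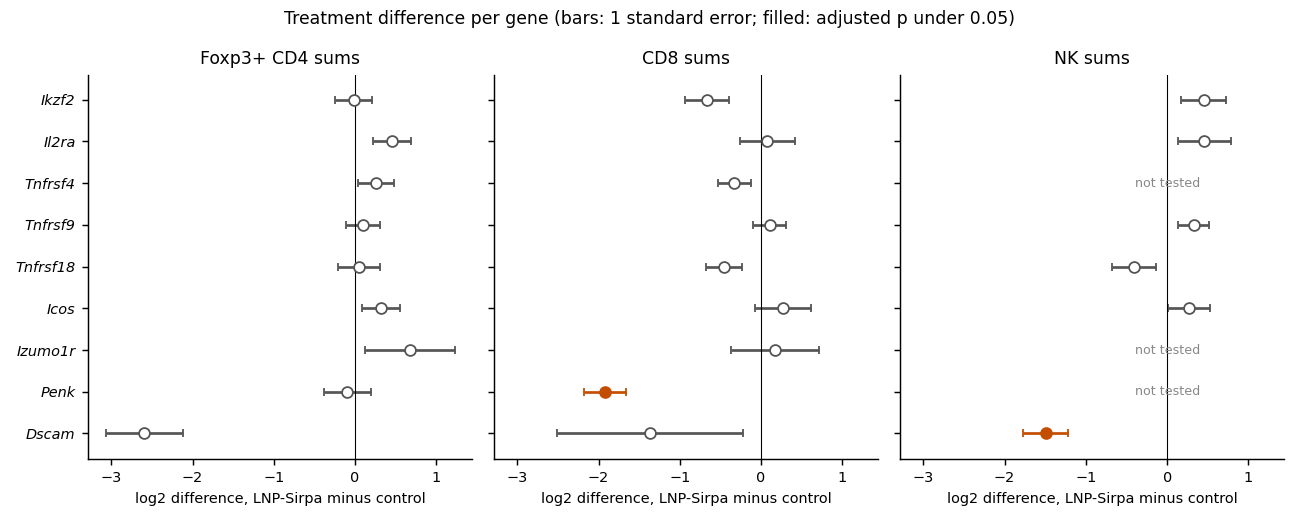
Log2 difference between LNP-Sirpa and control for each member in sums of Foxp3+ CD4, CD8 T and NK cells, with bars of 1 standard error; filled orange points have an edgeR adjusted p under 0.05, and genes too low to test in NK cells are marked. Filled points are Penk in CD8 T cells (-1.92) and Dscam in NK cells (-1.50), and Dscam lies furthest to the left in Foxp3+ CD4 cells (-2.60).

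In NK cells Dscam fell. NK cells had its highest mean over the 4 libraries, 103.8 ± 66.4 CPM (SD, n = 4), close to the 97.9 ± 78.0 of CD8 cells, which were higher in 2 of 4. Its NK level was 195 and 111 CPM in the control libraries and 59.8 and 49.5 CPM in the treated ones, a log2 difference of -1.50 ± 0.28 SE (edgeR adjusted p = 0.0307). It was the one member of 6 tested in NK cells that passed, where 30 of 8097 genes passed (0.371%), 17 lower (0.21%) and 13 higher (0.161%). The call was lost when control replicate 1 was left out (-1.03, adjusted p = 0.298) and likewise for LNP-Sirpa replicate 1 (-1.59, adjusted p = 0.282). It was also lost without cycling cells, at 2000 UMIs per cell and with DESeq2 (adjusted p = 0.0682), and over 14 settings the adjusted p lay between 5.12e-06 and 0.298. The NK gate was deeper in control, with medians of 9673.5 and 7685.5 UMIs per cell against 6346.5 and 5990. Its 10 phagocyte markers summed to 3335 and 3501 CPM in control libraries and to 1764 and 1553 CPM in treated ones, with none at 0. Its 6 NK markers summed to 2894 and 3445 CPM in control libraries and to 7048 and 9956 CPM in treated ones. Dscam itself was at or below 7.89 CPM in phagocytes, and the part of these differences in the result was not tested.

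In CD8 T cells Dscam was at 204 and 82.9 CPM in the control libraries and at 88.1 and 16.5 CPM in the treated ones. The groups overlapped, and the log2 difference of -1.37 ± 1.15 SE did not pass (edgeR adjusted p = 0.894). With LNP-Sirpa replicate 1 left out it passed (-2.89, adjusted p = 9.31e-08), and over 14 settings the adjusted p ran from 9.31e-08 to 1.00. LNP-Sirpa replicate 2 had the lowest Dscam level of the 4 libraries in Foxp3+ CD4, CD8, NK and phagocyte gates alike.

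Penk fell in CD8 T cells. Its level there was 103 and 77.5 CPM in the control libraries and 19.96 and 26.1 CPM in the treated ones, and the log2 difference was -1.92 ± 0.26 SE (edgeR adjusted p = 0.00252). Of 9 members tested in CD8 T cells it was the one that passed, and of 10408 genes 38 passed (0.365%), 18 lower (0.173%) and 20 higher (0.192%). The RNA came from 10 of 74, 49 of 377, 24 of 546 and 21 of 416 cells, that is 13.5%, 13.0%, 4.40% and 5.05%, against 1.70% to 2.48% of phagocytes. The tenth of CD8 cells with the most Penk held from 94.8% to 100% of its UMIs.

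The Penk call in CD8 cells held with DESeq2 and at 2000 UMIs per cell. It also held with each library left out, in fits of 1 library against 2, where the lone library is assumed to vary like the other group. It was lost when the limit on phagocyte RNA in a T cell was loosened to 1/2 of the phagocyte median (-2.02, adjusted p = 0.0923) or tightened to 1/5 (-1.59, adjusted p = 0.490), and without cycling cells (-1.92, adjusted p = 0.116), over a range of 2.52e-12 to 0.490. Phagocyte markers in the CD8 sums were at 4241 and 4811 CPM for control and 2453 and 2572 CPM for treated libraries, while Penk in phagocytes was at 1.94, 2.44, 3.23 and 2.79 CPM. The 6 NK markers were at 534, 182, 797 and 3156 CPM in the CD8 sums, and NK cells had at most 2.82 CPM of Penk.

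The other CD8 values were smaller. Ikzf2 averaged 249.1 ± 54.4 CPM in control and 155 ± 71.1 in LNP-Sirpa (log2 -0.67 ± 0.27 SE, edgeR adjusted p = 0.498). With LNP-Sirpa replicate 1 left out it passed (-1.11, adjusted p = 6.84e-05), and over 14 settings the adjusted p ran from 6.84e-05 to 1.00. Tnfrsf18 differed by -0.46 ± 0.22, Tnfrsf4 by -0.33 ± 0.20, Tnfrsf9 by 0.11 ± 0.20, Icos by 0.27 ± 0.35, Izumo1r by 0.17 ± 0.54 and Il2ra by 0.08 ± 0.34 on the log2 scale. None passed. Tnfrsf4 was at 220 and 207 CPM in control against 180 and 156 in LNP-Sirpa (edgeR adjusted p = 0.729). Tnfrsf18 was at 396 and 280 CPM against 239 and 241 (edgeR adjusted p = 0.588). The differences of Tnfrsf9, Icos, Izumo1r and Il2ra were smaller than the larger SD.

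Whether the treatment difference itself differed between Foxp3+ CD4 and CD8 cells was tested as an interaction. None of the 9 members passed, and none of 8395 genes did (0%), with 372 at an unadjusted p under 0.05 and 1 called by DESeq2. Penk came nearest, with a difference between the classes of 1.81 ± 0.28 SE on the log2 scale (edgeR adjusted p = 0.0652). It passed in 9 of 15 settings, with adjusted p between 1.33e-05 and 0.838, and missed the threshold with LNP-Sirpa replicate 2 left out (adjusted p = 0.487). For Dscam the difference was -1.47 ± 0.58, for Ikzf2 0.73 ± 0.36 and for Tnfrsf4 0.58 ± 0.26. The Penk fall thus passed in CD8 cells in the main setting, though not at other phagocyte limits or without cycling cells. It was not shown to be absent from Foxp3+ CD4 cells.

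Foxp3-negative CD4 cells could not be tested, since control replicate 1 held 15 cells against a minimum of 20. The values given above for that class therefore carry no p.

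Apart from Tnfrsf9, the members were at 24.8 CPM or below in every phagocyte sum. Tnfrsf9 was at 47.1, 58.2, 129 and 94.99 CPM, and the log2 difference of 1.23 ± 0.19 SE passed (edgeR adjusted p = 0.0496). There 199 of 15357 genes passed (1.3%), 150 higher (0.977%) and 49 lower (0.319%), and Tnfrsf9 was the one of the 9 members besides Foxp3 that did. Foxp3, at 1.66, 1.44, 3.76 and 1.79 CPM, was tested there as well and did not pass (edgeR adjusted p = 0.227). Of these 9 members 8 had a positive log2 difference in phagocytes, with a median log2 of 1.23 against -0.02 over all genes. These 8 include genes near the floor. Izumo1r differed by 1.99 (0.295 CPM in control against 1.09 in LNP-Sirpa) and Il2ra by 1.51 (3.90 against 10.3). Icos differed by 1.34 (3.14 against 7.45) and Tnfrsf4 by 1.32 (2.67 against 6.12). The edgeR adjusted p of these 4 ran from 0.0825 to 0.213. A Tnfrsf9 UMI was found in 5.71%, 6.73%, 16.0% and 14.4% of phagocytes thinned to 2000 UMIs. The call was lost without control replicate 1 (1.04, adjusted p = 0.221), control replicate 2 (1.44, adjusted p = 0.0568) or LNP-Sirpa replicate 1 (1.12, adjusted p = 0.0603) and with high doublet scores kept (1.20, adjusted p = 0.0546), over a range of 5.61e-06 to 0.221. The 7 T cell markers in the phagocyte sums were at 23.3, 33.5, 81.1 and 29.3 CPM, highest in LNP-Sirpa replicate 1, with replicate 2 between the control values. Cells with at least 2 UMIs of Cd3d, Cd3e and Cd3g together numbered 497, 1467, 2710 and 1525 of 7129, 10332, 9815 and 8555 kept cells. The part of T cell RNA in the phagocyte values was not tested.

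Of the ligands of these receptors, Tnfsf9, Tnfsf4 and Icosl had their highest mean over the libraries outside the T cells. Tnfsf9, the 4-1BB ligand, was highest in mature dendritic cells, at 136, 129, 195 and 280 CPM, against 18.8, 23.2, 15.1 and 22.1 in phagocytes. Tnfsf4, the OX40 ligand, was at 41.8, 34.1, 73.0 and 124 CPM in mature dendritic cells and at 46.4, 86.5, 40.1 and 5.83 CPM in NK cells, which were the higher of the 2 classes in both control libraries. Both dendritic sets were higher in LNP-Sirpa, without a test, because LNP-Sirpa replicate 2 held 16 of these cells. Icosl, the ICOS ligand, was spread over B cells, dendritic cells and phagocytes, and in phagocytes it was at 20.7, 24.0, 14.98 and 9.73 CPM (log2 -0.73 ± 0.20 SE, edgeR adjusted p = 0.123). Tnfsf18, the GITR ligand, and Il2 were at or below 6.98 CPM in each of the 4 classes tested.

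**Figure D5:**
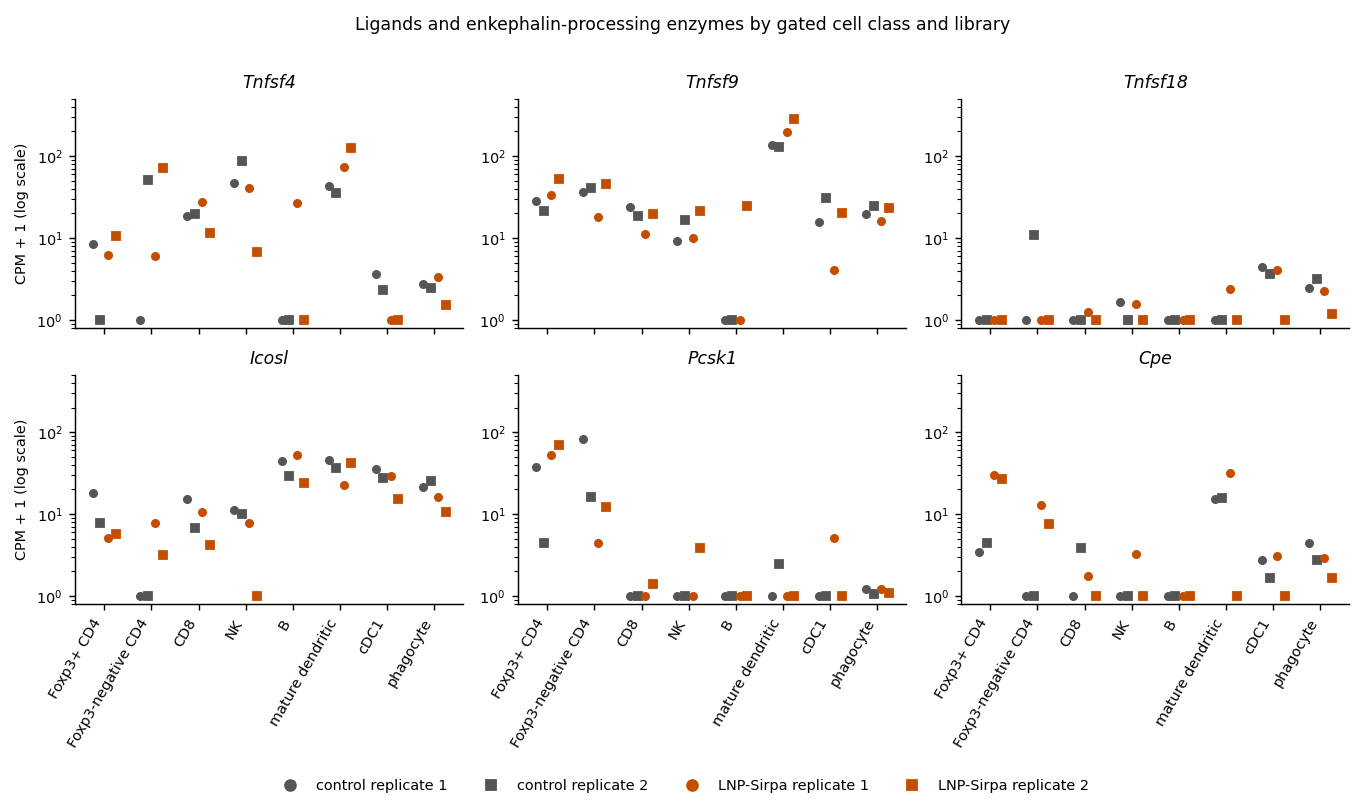
Level of 4 ligands of the members and of 2 enzymes that process proenkephalin, in CPM + 1 on a log scale, by gated cell class; each point is 1 library, grey control and orange LNP-Sirpa, circles replicate 1 and squares replicate 2. Tnfsf9 is highest in mature dendritic cells (129 to 280 CPM), Tnfsf4 is highest there in the LNP-Sirpa libraries and higher in NK cells in the control ones, and Pcsk1 and Cpe lie at or near 0 in CD8, NK and B cells.

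Proenkephalin is cut into active peptides by prohormone convertases and carboxypeptidase E. Pcsk1, a prohormone convertase, was at 37.0, 3.43, 52.3 and 68.5 CPM in Foxp3+ CD4 cells and at 82.4, 14.97, 3.40 and 11.1 CPM in Foxp3-negative CD4 cells. It had at most 0.401 CPM in CD8 T cells and 0.221 CPM in phagocytes. Cpe was at 2.47, 3.43, 28.7 and 26.0 CPM in Foxp3+ CD4 cells, with 1 UMI in each control library. The log2 difference of 3.14 ± 0.93 SE did not pass (edgeR adjusted p = 0.413). In Foxp3-negative CD4 cells Cpe was at 0, 0, 11.9 and 6.64 CPM, and in phagocytes at 3.42, 1.77, 1.94 and 0.672 CPM. Of the opioid receptors, Oprm1 was at 7.41, 20.6, 16.4 and 21.2 CPM in Foxp3+ CD4 cells, overlapping CD8 cells at 17.8, 13.1, 8.98 and 8.03 CPM, and Oprd1 was found in mature dendritic cells at 20.2, 11.8, 13.5 and 0 CPM.

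Of the lists of related genes, 1 gene passed in Foxp3+ CD4 cells. Of 30 other regulatory T genes 27 were tested, none passed, 22 were higher in LNP-Sirpa, and the median log2 difference was 0.29, against -0.02 over all genes tested. Of 16 genes of interleukin-2 signalling 12 were tested with a median of 0.19, and of 20 TNF receptor and costimulation partners 14 were tested with a median of 0.10, and none passed in either list. Of 10 enkephalin pathway genes 3 were tested, none passed and all 3 were higher (median 1.37). All 12 cell cycle genes were tested, none passed, and 3 were higher (median -0.19). Of 10 tested type I interferon genes all were higher, with a median of 1.31, and 1 passed: Ifi27l2a, a mitochondrial protein gene induced by interferon, at 832, 1329, 3981 and 2890 CPM (log2 1.66 ± 0.24 SE, edgeR adjusted p = 0.0317). The other gene that passed in this class was Nos2, the inducible nitric oxide synthase, named here after its values were seen. It had 0 UMIs in both control sums and 54.3 and 80.3 CPM in LNP-Sirpa, and in phagocytes it was at 7.87, 14.0, 147 and 119 CPM. Nos2 was also higher in LNP-Sirpa in CD8 T cells (3.55, 2.55, 42.7 and 41.4 CPM) and NK cells (1.34, 1.29, 29.9 and 11.7 CPM). Ifi27l2a was at 241, 245, 1468 and 526 CPM in CD8 T cells and at 65.2, 32.3, 242 and 40.8 CPM in NK cells. In phagocytes Ifi27l2a was at 555, 374, 1529 and 789 CPM.

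In CD8 and NK cells no gene of these lists passed. In phagocytes 4 did, all higher: Rsad2 (log2 3.14), Oasl1 (3.64) and Zbp1 (2.38) of the interferon list, whose median there was 2.60, and Socs1 (1.91), an inhibitor of cytokine signalling, of the interleukin-2 list. The interferon list had a median of 2.04 in CD8 and 1.13 in NK cells, and the cell cycle list 0.58 and -0.56. Other regulatory T genes had medians of 0.10 and -0.09.

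The genes whose pattern over the 10 gated classes was most like the mean of the members were Ctla4 (Pearson r = 0.982), Rora (0.980), Arl4a (0.978), Ttn (0.977) and Sv2c (0.975), among 4787 genes ranked. These are descriptions over class means that share libraries. Ctla4, the inhibitory receptor that competes with CD28, was at 802, 1230, 894 and 1060 CPM in Foxp3+ CD4 cells and at 309, 189, 240 and 214 CPM in CD8 T cells. Among the members themselves Icos ranked 3, Ikzf2 7, Tnfrsf18 11, Il2ra 18, Tnfrsf4 45, Penk 55, Izumo1r 73, Tnfrsf9 200 and Foxp3 894 (r = 0.726). Each member is part of the mean it was ranked against, which favours a high rank. Dscam was too low to be ranked.

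Ranked instead by the smallest of 4 log2 ratios of Foxp3+ over Foxp3-negative CD4 cells (10 CPM added), the gated gene Foxp3 came first of 15886 genes. Klrg1, Laptm4b, Lrrc32, Frmd5, Gm29114, Arl5a, Ky, Slc36a3os, Cep85l and Swap70 followed. Klrg1, an inhibitory receptor of effector lymphocytes, was at 239, 264, 329 and 345 CPM in Foxp3+ cells and at 11.8, 39.9, 59.6 and 64.2 CPM in Foxp3-negative cells. Lrrc32, which encodes GARP, the TGF-beta anchor on regulatory T cells, was at 46.9, 30.9, 55.3 and 59.0 CPM and at 0, 0, 15.3 and 13.3 CPM. Of the members, Ikzf2 ranked 28, Tnfrsf4 32, Tnfrsf9 51, Tnfrsf18 78 and Izumo1r 118. Il2ra (6390) and Icos (8737) ranked low through control replicate 1 alone, and Dscam (9627) and Penk (15737) through more than 1 library.

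Foxp3+ cells made up 67.9% ± 11.7 (SD, n = 2) of gated CD4 T cells in control and 51.7% ± 9.03 in LNP-Sirpa. The difference of -16.2 percentage points had an exact permutation p of 0.33, the smallest that 2 against 2 libraries allow, and at 2000 UMIs per cell it was -3.52.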

How the data were processed

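The deposited files hold UMI counts per gene and cell, 1 matrix per library. Per the labels' protocols the libraries were made from polyadenylated RNA with a DNBelab C Series droplet kit and read on a DNBSEQ-T7. The submitters' processing notes name STAR 2.5.1b and GRCm39, and the file headers name PISA 1.0; the strand setting is not given in the sources used here. The deposited counts were whole numbers, with every barcode at 1000 UMIs or more.

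Cells with under 500 UMIs, under 300 genes or over 15% mitochondrial UMIs were left out, 3 to 16 per library. Scrublet's automatic threshold (scanpy 1.11.5) marked 0 to 3 cells per library, too few to serve as a doublet call, so the top 5% of each library by score was dropped instead. Gates used marker UMIs per cell, with no clustering. Shares of cells were also computed after thinning each cell to 2000 UMIs. Wilson intervals (95%) cover counting error only.

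Counts were summed per library and class and tested with edgeR 4.0.16 (R 4.3.3) by its quasi-likelihood test, with TMM scaling, filterByExpr and robust estimation, Benjamini-Hochberg adjustment over all genes tested and a threshold of 0.05. Classes with fewer than 20 cells in any library were not tested. SE is the standard error of the log2 difference. Scripts were tested on simulated data. Fits with 1 library left out set 1 library against 2 and assume that the lone library varies like the other group. Alternatives were DESeq2 1.42.0, other size factors, no filter, a replicate block, each library left out, doublets kept, a stricter cell filter, other phagocyte limits, thinning, no cycling cells and other Foxp3 gates.

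The 10 members and the gene lists were chosen with earlier results of these data known. Named genes were the members, list genes past the threshold in a T cell class, partners of members, the 5 genes most like the members over the 10 classes (Pearson correlation of log2 CPM with 10 added, at least 20 CPM in each Foxp3+ CD4 sum) and the 10 with the highest smallest ratio of Foxp3+ over Foxp3-negative CD4 cells. Promoters came from RefSeq. The labels do not say whether replicate numbers pair the libraries, and the main fits were unpaired. Same-numbered deviations correlated at 0.0114 to 0.0719 over genes, which cannot settle the question.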

Additional observations from a re-analysis of the deposited data

How the results depend on the processing

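Over 31 single-gene results, 453 values under other settings gave 381 with the same direction and side of the threshold, 13 that lost the call, 26 that gained one and 33 with the opposite sign; none of those 33 was past the threshold in the reported value, and the cause was not tested. Sign changes in Foxp3+ CD4 cells were as follows. Ikzf2 went to 0.0085 with DESeq2 size factors, 0.0055 with doublets kept, 0.043 without a filter, 0.15 and 0.034 at phagocyte limits of 1/2 and 1/5, 0.088 when thinned, and ran from -0.27 to 0.33 with 1 library left out (0.016 without LNP-Sirpa replicate 2). Tnfrsf9 went to -0.00074 at a limit of 1/5, -0.053 when thinned, -0.11 without cycling cells and -0.081 to 0.29 with 1 library left out. Tnfrsf18 went to -0.067 at 1/5, -0.014 without cycling cells and -0.21 to 0.39 with 1 library left out (-0.18 without LNP-Sirpa replicate 2). Penk went to 0.16 at 1/2, 0.073 with at least 2 Foxp3 UMIs and -0.58 to 0.31 with 1 library left out (0.026 without control replicate 1), and Tnfrsf4 ran from -0.036 (without LNP-Sirpa replicate 2) to 0.52. In CD8 cells with 1 library left out, Il2ra ran from -0.50 to 0.62 (-0.082 without LNP-Sirpa replicate 1), Icos from -0.17 to 0.79 (-0.059 without LNP-Sirpa replicate 2) and Izumo1r from -0.21 to 0.68. Il2ra was -0.0057 when thinned, Tnfrsf9 -0.013 without cycling cells and Izumo1r -0.22 at 1/2. In NK cells Il2ra ran from -0.39 to 0.68 and Tnfrsf18 from -0.77 to 0.060 with 1 library left out, and Icos was -0.066 without cycling cells.

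Counts of genes past the threshold moved widely. In Foxp3+ CD4 cells, 2 became 6 with DESeq2, 102 without a filter, 17 to 94 with 1 library left out, 35 with doublets kept, 72 and 14 at limits of 1/2 and 1/5, 8 when thinned, 1 without cycling cells, 6 with at least 2 Foxp3 UMIs and 41 with no Cd4 requirement. In CD8 cells, 38 became 280 without a filter, 15 to 339 with 1 library left out, 13 at 1/5, 15 when thinned and 4 without cycling cells. In NK cells, 30 became 13 with DESeq2, 159 without a filter, 21 to 228 with 1 library left out and 89 at 1/2. In phagocytes, 199 became 1223 with DESeq2, 1094 without a filter, 17 to 539 with 1 library left out and 635 when thinned. For the interaction, 0 became 1 with DESeq2, 8 without a filter, 2 to 68 with 1 library left out, 1 with doublets kept, 3 at 1/2 and at 1/5, 5 when thinned, 3 without cycling cells and 1 with at least 2 Foxp3 UMIs. The cause was not tested.

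With the replicate number as a block, although the labels do not say that the numbers pair the libraries, the counts were 76 in Foxp3+ CD4, 201 in CD8, 19 in NK and 455 in phagocyte sums. Under the block Ikzf2 in Foxp3+ CD4 cells was at 0.016, Dscam in NK cells had an adjusted p of 0.0537, and Dscam in CD8 cells had -1.69 with an adjusted p of 5.85e-05.

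The difference in the share of Foxp3+ cells among T cells ran from -8.91 to 1.74 percentage points with 1 library left out, 1.74 without control replicate 1. When thinned, the mean log2 ratio of Foxp3+ CD4 over CD8 was 3.48 for Tnfrsf4 and 1.498 for Tnfrsf9. A gate on Ccr8 in place of Foxp3 and the interaction with Foxp3-negative CD4 cells were not run, since a library held 9 and 15 cells, under the minimum of 20. In Foxp3+ CD4 sums, 291141 to 975733 UMIs limit what could be detected.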
